A study of Mus musculus with 44 samples.

Results

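The H2 genes of mouse chromosome 17 encode the molecules of the major histocompatibility complex (MHC) and their relatives. In GENCODE vM21 (GRCm38/mm10), 45 genes of this chromosome have a symbol that begins with H2-, of which 32 belong to class I, 12 to class II and 1, *H2-Ke6*, to neither. CTCF peaks were assigned to them when the summit, the position of the highest signal in a peak, lay inside an H2 gene or within 20 kb of it, and each peak was counted once, at the nearest gene. This gave 83 of the 59698 CTCF peaks of *Setdb1* KO ESCs and 71 of the 44241 CTCF peaks of WT ESCs. Of the 45 genes, 34 are annotated as protein coding, and 39 had a *Setdb1* KO peak within 20 kb.

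CTCF was mapped by ChIP-seq in TT2 embryonic stem cells (ESCs) of a C57BL/6/CBA F1 strain. The *Setdb1* KO cells carried a conditional deletion, induced with 800 nM 4-OHT for 4 days, and were harvested on day 6. The WT cells were of the same TT2 strain and are labelled with no deletion. SETDB1 is a methyltransferase of histone H3 lysine 9, and the study asked how its loss changes the places that CTCF binds. Each condition is represented by 1 peak list from 1 library, which leaves the comparison of conditions without replicates or a test, and every interval below covers counting error only.

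The libraries were of similar depth, with 27.6 M tags in *Setdb1* KO and 27.4 M tags in WT as computed from the lists, set by the authors against 28.5 M and 30.9 M input tags. The height of a peak is given here as its pileup, the number of fragments over the summit, which was recovered from the deposited fold enrichment and -log10 p. Peaks with at least 1 bp in common between the lists are called shared. Those found in a single list are called KO-only or WT-only. At the 41869 shared sites of the genome where a single peak of each list overlapped, the median ratio of *Setdb1* KO to WT pileup was 1.36, and every ratio near H2 genes is read against this value and not against 1.

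Class I molecules present peptides from inside the cell to CD8 T cells, and class II molecules present peptides from the endocytic pathway to CD4 T cells. The genes arose by repeated duplication, so that class I genes in particular lie in blocks of near copies, among them the classical *H2-K1* and *H2-D1* and the nonclassical genes of the Q, T and M regions. CTCF binds a motif with a direction at insulators and at the anchors of chromatin loops formed with cohesin, and in human cells it is known to bind between class II genes. ESCs were not examined for H2 expression here, since the peak lists measure binding only.

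The sequences under the summits that carry the results follow, as the reference genome (RefSeq GRCm38.p6) gives them, each read 5′ to 3′ on the strand named, with the 14 bp core of the CTCF motif in capitals. The cells are an F1 of C57BL/6 and CBA, whose H2 haplotypes differ from each other, so the sequence of the CBA alleles is not shown. The first lines are sites upstream of class I genes that held the same core in every copy.
*H2-K1*, upstream, chr17:34003621-34003650, minus strand: tgtttcttCCACCAGGCGGCGCtgttgccc
*H2-Q6*, upstream, chr17:35420656-35420685, plus strand: tgtttcttCCACCAGGCGGCGCcgttgccc
*H2-Q10*, upstream, chr17:35465863-35465892, plus strand: tgtttcttCCACCAGGCGGCGCtgttgccc
The next lines are 4 class I sites whose surrounding sequences were alike, with *Setdb1* KO pileups of 92, 13, 98 and 107 fragments in the order printed.
*H2-Q1*, chr17:35300735-35300764, minus strand: ccaggccgCCAGAAGAGGGCACcctaccca
*H2-D1*, chr17:35273823-35273852, minus strand: tcaggcagCCAGAAGAGGGCACcctaccca
*H2-K1*, chr17:33992446-33992475, plus strand: caaggcagCCAGAAGAGGGCGCcctagcca
*H2-K2*, chr17:33969575-33969604, plus strand: ccagtctgCCAGAAGAGGGCAGcctatccc
The class II lines are the highest site of the H2 genes, in *H2-DMa*, and the 3 sites between *H2-DMb1* and *H2-Ob* whose ratios stood above the median of the genome.
*H2-DMa*, chr17:34135411-34135440, plus strand: ccgaccttCCACCAGGGGGCGGaggtctcc
*H2-DMb1*, chr17:34172715-34172744, plus strand: cacagaggCCAGTAGAGGGCATcagatatc
*H2-Ob*, distal, chr17:34219276-34219305, minus strand: tatgtaggCCAGAAGGGGGCGCcagatccc
*H2-Ob*, proximal, chr17:34235160-34235189, minus strand: ttacatggCCACCAGATGGCACcagactca
The last lines are KO-only sites from a repeated sequence with many alike windows on chromosome 17.
*H2-K1*, repeat, chr17:33993744-33993773, minus strand: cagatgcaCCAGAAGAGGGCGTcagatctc
*H2-D1*, repeat, chr17:35279613-35279642, minus strand: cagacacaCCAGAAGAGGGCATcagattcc
*H2-Q10*, repeat, chr17:35486582-35486611, minus strand: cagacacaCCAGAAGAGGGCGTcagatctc
*H2-T22*, repeat, chr17:36036317-36036346, minus strand: cagtcgcaCCAGAAGAGGGCGTcggatctc

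Most CTCF peaks near H2 genes were listed in both conditions. Of the 83 *Setdb1* KO peaks, 68 were shared and 15 were KO-only, a share of 18.1% (Wilson 95% interval 11.3 to 27.7%), against 28.8% KO-only among all *Setdb1* KO peaks of the genome. The interval lies below the share of the genome, but under 6 of 9 other settings the H2 interval contained the genome share of that setting. These were reciprocal overlap (24.1%, 16.2 to 34.3%, against 34.1%), summits within 100 bp (24.1%, 16.2 to 34.3%, against 30.2%), a fold enrichment of at least 5 (20.8%, 13.1 to 31.6%, against 26.5%), and windows of 0, 10 and 50 kb (25%, 19.1% and 21.6%, with upper limits of 49.5, 30.4 and 29.9%, against 28.8%). Under the other 3 settings the H2 interval stayed below the genome share. These were -log10 q of at least 5 (12.0%, 6.44 to 21.3%, against 26.6%), lists of equal length (1.56%, 0.276 to 8.33%, against 11.7%) and protein-coding H2 genes (16.4%, 9.66 to 26.6%, against 28.8%). The rest of chromosome 17 had 28.3% KO-only peaks (706 of 2497), and the peaks between the first and the last H2 gene that lay over 20 kb from every H2 gene had 26.6% (37 of 139, 20.0 to 34.5%). Only 3 of the 71 WT peaks near H2 genes were WT-only, 4.22% (1.45 to 11.7%), against 3.22% of all WT peaks. At the 65 H2 sites with a single peak in each list, summed pileups were 4635 in *Setdb1* KO and 3368 in WT, giving a ratio of 1.38 (Clopper-Pearson 95% interval 1.32 to 1.44), and the median ratio was 1.365, next to the 1.36 of the genome.

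**Figure D1:**
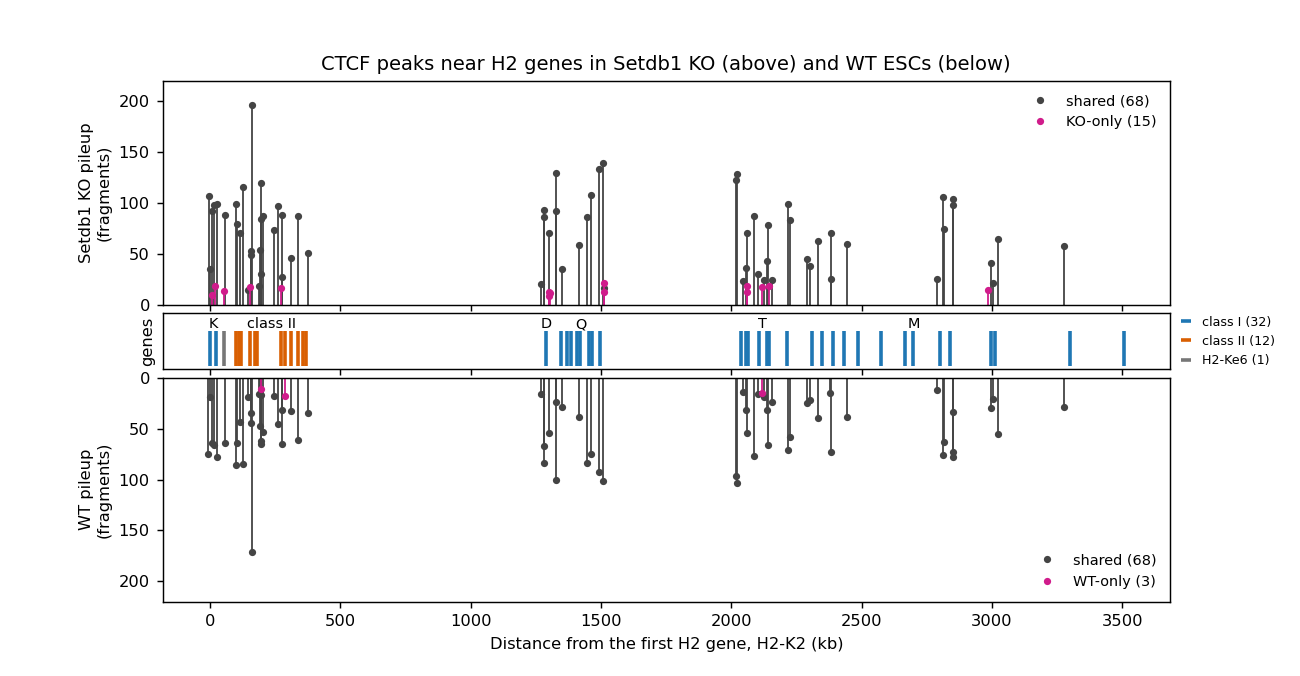
CTCF pileup in fragments (vertical axes, *Setdb1* KO above and WT below) against distance in kb from *H2-K2*, with every H2 gene as a bar in the middle track. Lines with grey heads are the 68 shared *Setdb1* KO peaks and the 68 shared WT peaks, and magenta heads are the 15 KO-only and 3 WT-only peaks. All KO-only peaks are low, at 9 to 22 fragments, while shared *Setdb1* KO peaks reach 197.

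Class I and class II genes had different numbers of peaks for their length. Near class I genes there were 58 *Setdb1* KO peaks and 47 WT peaks, or 5.48 and 4.44 per 100 kb of sequence within reach of the genes. Near class II genes there were 23 peaks in each list, or 8.45 per 100 kb in *Setdb1* KO and in WT. Among class I regions, region M was the lowest, with 2.89 per 100 kb over 554 kb in both lists. In *Setdb1* KO, regions K (10.7), T (8.48) and D (15.6) were at or above class II, and region Q (5.665) was below it. In WT, region D (8.94) was above class II, and regions K (7.61), T (6.98) and Q (4.12) were below it. These densities were not tested, and the lowest and highest are so only among these groups. For scale, chromosome 17 is 94987271 bp long and held 2497 *Setdb1* KO peaks that were not near H2 genes. KO-only peaks made up 12 of 58 (20.7%, 12.2 to 32.8%) near class I genes and 2 of 23 (8.70%, 2.42 to 26.8%) near class II genes. These intervals overlap, and a difference between the classes was not tested. The 28.8% of the genome lies inside the class I interval. Under 1 of 10 other settings, -log10 q of at least 5, the class I interval lay below the genome share (12.0%, 5.62 to 23.8%, against 26.6%). The class II interval, which rests on 2 KO-only peaks, ended below the genome share here and contained it under 5 of 10 other settings, among them a fold enrichment of at least 5 (13.6%, 4.75 to 33.3%, against 26.5%). The neither-class gene *H2-Ke6*, which encodes a hydroxysteroid dehydrogenase (HSD17B8), had 2 *Setdb1* KO peaks and 1 WT peak. Its KO-only peak, with 14 fragments, had its summit 27 bp from the transcription start, and its shared peak had 88 fragments in *Setdb1* KO and 64 fragments in WT.

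At shared sites the classes were close to each other. Summed pileups over 43 class I sites were 3001 in *Setdb1* KO and 2208 in WT, giving a ratio of 1.36 (1.29 to 1.44) with a median of 1.34. Those over 21 class II sites were 1546 and 1096 in the same order, a ratio of 1.41 (1.305 to 1.525) with a median of 1.365. A ratio of at least 2 was found at 5 of the 65 H2 sites (7.69%), against 9.39% of the paired sites of the genome. The interval of the ratio lay wholly above the genome median at 4 of 65 H2 sites, with 5.49% of sites above it across the genome, and wholly below at 0 of 65, with 2.27% below it across the genome. The 4 sites were 3 near class II genes, all between *H2-DMb1* and *H2-Ob*, and 1 near *H2-Q1* of class I. A lower pileup in *Setdb1* KO than in WT was found at 3 of the 65 sites, against 3103 of the 41869 paired sites of the genome. For each of the 3 H2 sites the interval included 1.

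**Figure D2:**
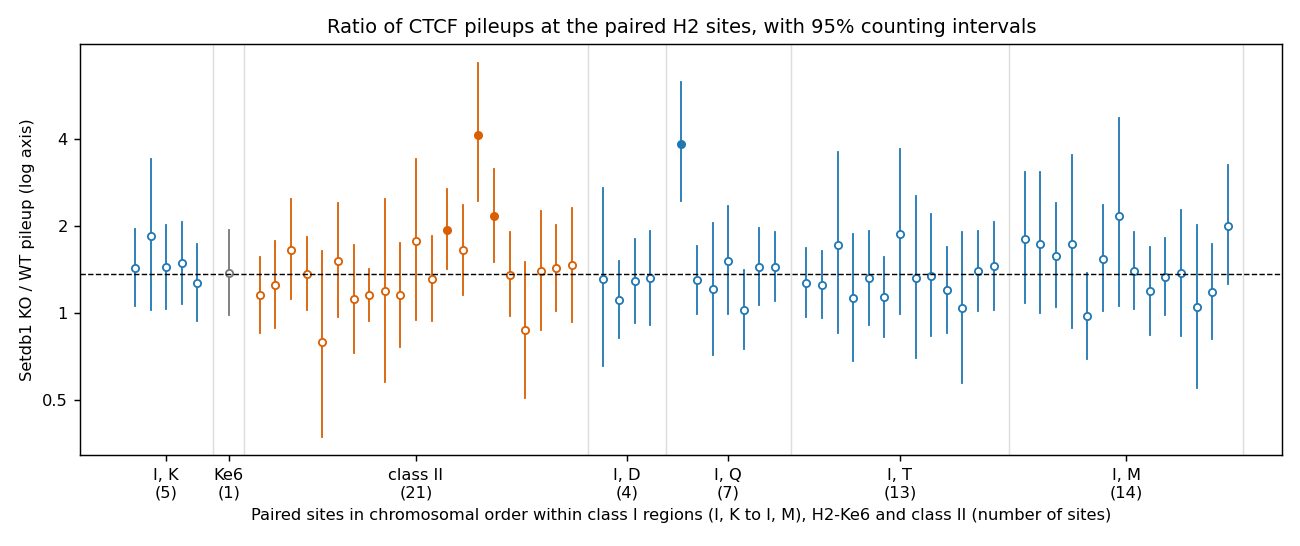
Ratio of *Setdb1* KO to WT pileup at each of the 65 paired H2 sites on a log axis, in chromosomal order within each class I region, *H2-Ke6* and class II. Points are ratios, vertical lines are 95% Clopper-Pearson counting intervals, and the dashed line is the median of the genome, 1.36. Filled points are the 4 sites whose interval lies above that line, 3 of class II and 1 near *H2-Q1* in the Q region.

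The class II genes spread over 271 kb, from the pseudogene *H2-Pb* to *H2-Ea-ps*, the pseudogene of the I-E alpha chain in the reference. CTCF sites were unevenly placed among them. Only 4 of the 11 gaps between neighbouring class II genes held a peak, and the 78.7 kb gap between *H2-DMb1* and *H2-Ob* alone held 12 *Setdb1* KO and 12 WT peaks. The gaps without a peak were 0.546 to 18.0 kb long, and the count of gaps takes no account of length. The gap between *H2-DMb1* and *H2-Ob* also contains *Psmb9* and *Psmb8*, subunits of the immunoproteasome, and *Tap1* and *Tap2*, which form the transporter that carries peptides to class I molecules. In contrast, no peak of either list lay in the gaps from *H2-Ob* to *H2-Ab1*, from *H2-Ab1* to *H2-Aa* (13.3 kb), from *H2-Aa* to *H2-Eb1* (18.0 kb), from *H2-Eb1* to *H2-Eb2* (8.99 kb) or from *H2-Eb2* to *H2-Ea-ps*. From *H2-Ab1* to *H2-Ea-ps* the genes encode chains of the antigen-presenting molecules I-A and I-E, and the sites of this stretch lay inside *H2-Ab1*, *H2-Aa* and *H2-Eb1* or beyond *H2-Ea-ps*.

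Starting at the left end, the site inside the pseudogene *H2-Pb* had 99 fragments in *Setdb1* KO and 86 fragments in WT. The site in the gap between *H2-Pb* and *H2-Pa* had 80 fragments in *Setdb1* KO and 64 fragments in WT. Between *H2-Pa* and *H2-Oa* the site had 71 fragments in *Setdb1* KO and 43 fragments in WT. *H2-Oa* encodes the alpha chain of H2-O, which modulates the peptide exchange catalysed by H2-DM. The site between *H2-Oa* and *H2-DMa* had 116 fragments in *Setdb1* KO and 85 fragments in WT. The ratios of these 4 sites were between 1.15 and 1.65, and each interval contained the genome median.

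*H2-DMa*, the alpha chain of the H2-DM molecule that loads peptides onto class II, held more peaks than any other H2 gene, with 5 in *Setdb1* KO inside its annotated span. The strongest lay 238 bp from a transcription start of *H2-DMa* (chr17:34135131-34135748) and was the highest of all H2 peaks, with 197 fragments in *Setdb1* KO and 171 fragments in WT (ratio 1.15). Its fold enrichment over background in the *Setdb1* KO list was 59.1. The others were an intronic site (53 fragments in *Setdb1* KO, 35 in WT), a site near it (49 and 44 in that order), and a site near a start of *Brd2* (15 and 19). The fifth was KO-only with 18 fragments (chr17:34129124-34129398). The site with 49 fragments, the *Brd2* site and the KO-only site lay near starts of other genes. The annotated span of *H2-DMa* is 19561 bp long. Counted from the start near the strongest peak, all 5 would lie between *H2-Oa* and *H2-DMa*. The peak number of *H2-DMa*, and the counts and ratios inside and between class II genes, thus depend on this annotation. No peak lay between *H2-DMa* and *H2-DMb2* or between *H2-DMb2* and *H2-DMb1*, which encode copies of the beta chain of H2-DM.

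The gap between *H2-DMb1* and *H2-Ob* carried the largest differences of the class II genes. Summed over its 11 paired sites, pileups were 824 in *Setdb1* KO and 486 in WT, giving a ratio of 1.70 (1.51 to 1.901), and the interval lies above the genome median of 1.36. Without the site of the highest ratio the sums were 750 and 468, a ratio of 1.60 (1.43 to 1.80). The comparison of gaps was chosen after earlier results of these lists were known, and the leave-out after these values were seen.

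The site at the highest ratio of all H2 genes, 19.7 kb from *H2-Ob* (chr17:34218968-34219441), had 74 fragments in *Setdb1* KO and 18 fragments in WT, a ratio of 4.11 (2.43 to 7.31). It lay 2916 bp outside *Tap2*, and its motif core, printed above as the distal line, lay 54 bp from the summit and so outside the 50 bp searched first. The site 3744 bp from *H2-Ob* (chr17:34234935-34235521) had 97 fragments in *Setdb1* KO and 45 fragments in WT, a ratio of 2.16 (1.499 to 3.14). *H2-Ob* encodes the beta chain of H2-O. The third site, 12.5 kb from *H2-DMb1* and 9261 bp from *Psmb9* (chr17:34172523-34173098), had 120 fragments in *Setdb1* KO and 62 fragments in WT, a ratio of 1.94 (1.41 to 2.67). All 3 were already called in WT, so that they are differences in height and not new peaks.

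At the remaining paired sites of this gap the intervals contained the genome median, and the ratios lay on both sides of it, from 1.15 to 1.76. Nearest to *H2-DMb1*, they had 19, 54, 30, 85 and 87 fragments in *Setdb1* KO, against 16, 47, 17, 65 and 53 fragments in WT at the same sites in the same order. The 3 shared sites at *Tap2*, which lie over 20 kb from every H2 gene and are not among the 83 peaks, had 92, 69 and 97 fragments in *Setdb1* KO, against 61, 45 and 57 fragments in WT. A KO-only peak 26 bp from the start of *Tap2* had 17 fragments. A WT-only peak 10.2 kb from *H2-DMb1* (chr17:34170354-34170584) had 11 fragments, and it lay beside the shared site that had 85 fragments in *Setdb1* KO and 65 in WT.

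The gap between *H2-DMb1* and *H2-Ob* set the ratio of all sites between class II genes. The 14 paired sites between the genes had summed pileups of 1091 in *Setdb1* KO and 678 in WT, giving a ratio of 1.61 (1.46 to 1.77), and single-site ratios between 1.15 and 4.11. The 9 paired sites inside the genes had 662 and 546 in the same order, a ratio of 1.21 (1.081 to 1.36), and single-site ratios between 0.789 and 1.51. The 2 intervals do not overlap, nor do they without the site of the highest ratio between the genes (1.54, 1.40 to 1.70). When the strongest site, in *H2-DMa*, was left out of those inside the genes (1.24, 1.08 to 1.425), the interval still ended below that of all sites between the genes, and overlapped the one without the top site. The 3 paired sites in the other gaps summed to 267 in *Setdb1* KO and 192 in WT. Their ratio of 1.39 has an interval (1.15 to 1.68) that contains the genome median and overlaps that of the sites inside the genes. The intervals hold no spread between sites, so a difference between sites inside and between class II genes in general was not shown. Which sites count as inside also depends on the annotated span of *H2-DMa*. The ratios were not recomputed with that gene counted from the start near its strongest peak.

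**Figure D3:**
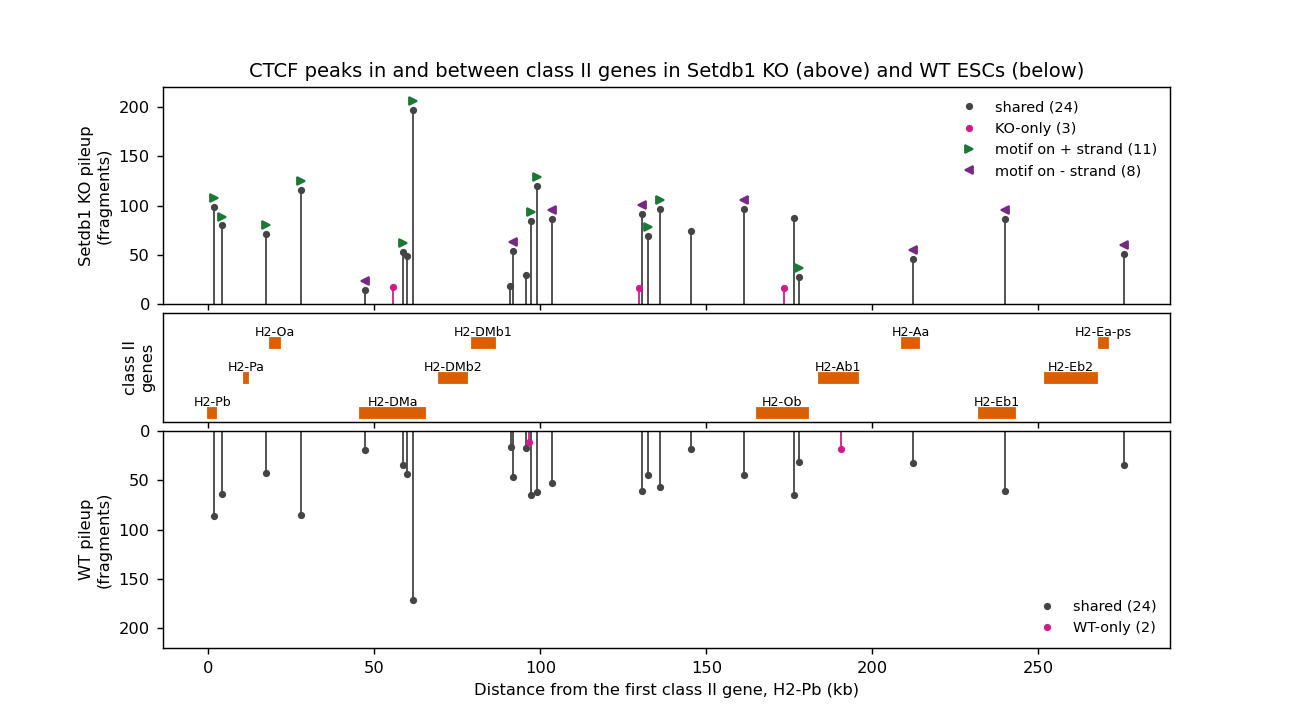
CTCF pileup in fragments at each peak of the class II stretch against distance in kb, in *Setdb1* KO above and in WT below, with the class II genes marked. Triangle direction gives the strand of the CTCF motif where a motif was called. The tallest peak, 197 in *Setdb1* KO and 171 in WT, lies in *H2-DMa*, and the cluster to the left of *H2-Ob* holds the sites with 74 and 97 fragments in *Setdb1* KO that have 18 and 45 in WT.

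At the right end of the class II genes the peaks were few. *H2-Ob* itself held 3 *Setdb1* KO peaks, of which 1 was KO-only with 17 fragments in an intron (chr17:34247084-34247342). The other sites inside *H2-Ob* had 88 and 28 fragments in *Setdb1* KO, against 65 and 32 fragments in WT, so that the weaker of the pair was among the 3 sites that were lower in *Setdb1* KO. *H2-Ab1*, the I-A beta chain, held no *Setdb1* KO peak, and a WT-only peak of 18 fragments lay in it 867 bp from a transcription start (chr17:34264079-34264322). The site in an exon of *H2-Aa*, the I-A alpha chain, had 46 fragments in *Setdb1* KO and 33 fragments in WT. The site in an intron of *H2-Eb1*, the I-E beta chain, had 87 fragments in *Setdb1* KO and 61 fragments in WT. The site 4952 bp beyond *H2-Ea-ps* had 51 fragments in *Setdb1* KO and 35 fragments in WT, and *H2-Eb2* had no peak of its own, with these last sites as the nearest.

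The strand of the CTCF motif was not the same along the class II genes. Left of *H2-DMb2*, 6 of 9 *Setdb1* KO peaks had a motif on the plus strand and 1 on the minus strand. Between *H2-DMb1* and *H2-Ob*, 4 of 12 had it on the plus strand and 4 on the minus strand. From *H2-Ob* on, 1 of 6 had it on the plus strand and 3 on the minus strand. The remaining peaks had no motif within 50 bp of the summit, and contacts between the sites were not analysed here.

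The class I genes were covered in blocks. Region K (*H2-K2* and *H2-K1*) had 7 *Setdb1* KO and 5 WT peaks, region D (*H2-D1*) 7 and 4, region Q 11 and 8, region T 17 and 14, and region M 16 and 16, in the same order. Per 100 kb this ranged from 2.89 in region M in both lists to 15.6 in *Setdb1* KO and 8.94 in WT around *H2-D1*. Region D had the highest KO-only share, 3 of 7 peaks (42.9%, 15.8 to 74.95%), and region M the lowest, 1 of 16 (6.25%, 1.11 to 28.3%), and all of these intervals overlap. The ratio of summed pileups was between 1.23 (1.02 to 1.47) in region D and 1.45 (1.28 to 1.64) in region Q, each interval containing 1.36.

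No peak of *Setdb1* KO lay within 20 kb of 6 genes, all of class I: *H2-Q3*, *H2-M10.4*, *H2-M11*, *H2-M9*, *H2-M1* and *H2-M2*. The nearest *Setdb1* KO summit was 21.5 kb from *H2-M1*, and for the others between 30.03 kb (*H2-Q3*) and 172 kb (*H2-M2*). Inside the body of H2 genes, *Setdb1* KO had 4 peaks in 4 of 32 class I genes and 11 peaks in 5 of 12 class II genes. Class II genes are longer, and per 100 kb of gene this was 3.05 in class I and 10.7 in class II, or 7.19 in class II without *H2-DMa*, with no test made. *H2-M10* genes are known for their expression with vomeronasal receptors, and their peaks lay outside the genes.

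The highest class I sites were in regions Q and T. After the site in *H2-DMa*, the 4 highest *Setdb1* KO pileups were 140 and 134 near *H2-Q10*, which encodes a class I molecule secreted by the liver, 130 near *H2-Q1* and 129 near *H2-T24*. The site with 134 fragments had 93 in WT, that with 130 had 100 in WT, and that with 129 had 103 in WT. The site with 140 fragments overlapped a WT peak of 101 fragments that was also overlapped by a *Setdb1* KO peak of 17 fragments, so that no ratio was taken. This order takes no account of how much of each site's sequence is unique, which was 57.7% at the *H2-Q10* site of 134 fragments.

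Many class I sites were copies of each other. When the 201 bp around each summit were aligned to chromosome 17, 27 of the 58 class I peaks (46.6%) fell into 8 families of alike sites with at least 80% identity over at least 100 bp. Another 10 (17.2%) belonged to a repeated sequence with 700 to 3909 alike windows on the chromosome, and no class II peak was in a family. A single class II peak of 23, in *H2-DMa* (53 fragments in *Setdb1* KO, 35 in WT), was alike to 2 sites of the repeat, near *H2-M10.2* and *H2-M6-ps*, with 86% and 84.6% identity. It had 94 alike windows on the chromosome and so fell under the limit of 100 set for the repeat. The families were formed after the lists had been seen. They include sites near *H2-T23*, which encodes Qa-1, paired with a site near *H2-T-ps*, sites shared by *H2-T22* and *H2-T10* (97.5% identity), and 5 sites among *H2-M10.1*, *H2-M10.3*, *H2-M10.5* and *H2-M10.6*.

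Outside the repeat, the largest family lay upstream of 6 class I genes, *H2-K2*, *H2-K1*, *H2-Q5*, *H2-Q6*, *H2-Q7* and *H2-Q10*, with 92.5 to 96.6% identity between the sites. Each held the core CCACCAGGCGGCGC, 3288 to 4212 bp upstream of the gene's start and on the strand of the gene. Pileups in *Setdb1* KO were 92 at *H2-K2*, 99 at *H2-K1*, 59 at *H2-Q5*, 86 at *H2-Q6*, 108 at *H2-Q7* and 134 at *H2-Q10*. Those in WT were 64, 78, 39, 84, 75 and 93 in the same order, so that all 6 sites were shared and had ratios between 1.02 and 1.51. A seventh copy of the core, 24.4 kb upstream of *H2-Q1* and thus outside the 20 kb, had 137 fragments in *Setdb1* KO and 101 in WT. All 7 copies between the first and the last H2 gene lay in a peak of both lists, and 6 of the 7 were alike over the 30 bases printed, with *H2-Q6* as the exception. Because the core was taken from *Setdb1* KO peaks near H2 genes, the 6 copies within 20 kb lie in such a peak by construction. Searched on both strands within 50 bp of summits, this core was found in 14 of 42476 shared peaks of the genome (0.0330%) and in 0 of 17198 KO-only peaks. The core was chosen as the most frequent one among the class I family sites, and 6 of the 14 are the H2 peaks themselves. These counts therefore show that the core is rare and do not compare shared with KO-only peaks.

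*H2-D1*, which encodes the other main classical class I molecule, had no copy of this site. A shared site 4388 bp upstream of it had 86 fragments in *Setdb1* KO and 67 fragments in WT, with no motif called within 100 bp of its summit and no alike window among H2 sites.

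A further family joined *H2-K2*, *H2-K1*, *H2-D1* and *H2-Q1*, with 87.9 to 92.8% identity. In *Setdb1* KO its member near *H2-D1* was low, while the others had 92 to 107 fragments. The site near *H2-Q1* (chr17:35300550-35300956) had 92 fragments in *Setdb1* KO and 24 fragments in WT, a ratio of 3.83 (2.42 to 6.28), the only class I site with an interval above the genome median. Its summit was at 35300736 in *Setdb1* KO and at 35300671 in WT. No motif was called within 50 bp of the WT summit, so the WT height at the core itself is not known. The site near *H2-D1* (chr17:35273697-35274094) was KO-only with 13 fragments. The sites near *H2-K2* and *H2-K1* had 107 and 98 fragments in *Setdb1* KO. They lay in wide peaks (1465 and 876 bp) whose WT summits, of 75 and 66 fragments, were 881 and 421 bp away at other motifs, so that the WT height at the alike sequence is not known and the ratios of 1.43 and 1.48 set different sites side by side. Of the 65 paired H2 sites 4 had summits over 100 bp apart, these and sites near *H2-M10.2* and *H2-M10.6*. The cores of the *H2-Q1* and *H2-D1* copies are the same 14 bases, as the printed lines show. Near *H2-Q1* and *H2-D1* a second pair of alike sites had 130 and 71 fragments in *Setdb1* KO, against 100 and 54 fragments in WT.

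**Figure D4:**
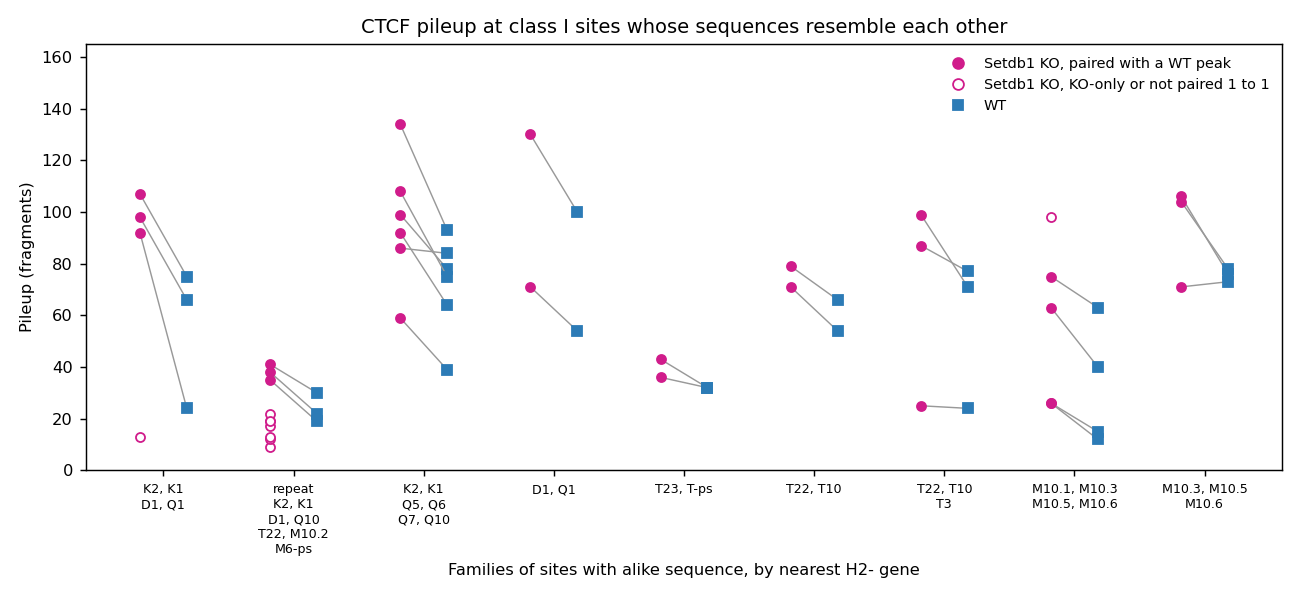
CTCF pileup in fragments at class I sites grouped by family of alike sequence, with *Setdb1* KO left of WT in each family. Filled points are *Setdb1* KO peaks joined by a line to their WT peak, squares are WT peaks (at *H2-K2* and *H2-K1* of the first family their summits lie 881 and 421 bp away), and hollow points are KO-only peaks or peaks without a single partner. The family with the core CCACCAGGCGGCGC lies between 59 and 134 in *Setdb1* KO and between 39 and 93 in WT, while the repeat family stays at or below 41 in *Setdb1* KO.

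The 10 sites of the repeated sequence were low, with 9 to 41 fragments and a median of 19 in *Setdb1* KO, and 6 of them were KO-only. They lay near *H2-K2*, *H2-K1*, *H2-D1*, *H2-Q10*, *H2-T22*, *H2-M10.2* and *H2-M6-ps*. In contrast, 1 of the 27 sites of the other families was KO-only, and those 27 had a median of 86 fragments. Unique 32-base words made up 15.4 to 80.1% of the repeat sites, and the part of this in their height was not tested. The 3 paired sites of the repeat had a ratio of summed pileups of 1.61 (1.18 to 2.19), and the 25 paired sites of the other families had 1.36 (1.27 to 1.45). The consensus of their cores, CCAGAAGAGGGCNT (N where no base reached 75% of the 7 sites with a motif), was searched in the same way across the genome. It stood in 12.96% of KO-only peaks, 6.62% of shared peaks and 0.379% of windows 1 kb away from summits. The consensus was itself built from sites of these lists, most of them KO-only. These shares are thus no independent comparison of KO-only with shared peaks. Repeat classes were not annotated here, so the repeat is given no name.

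All 15 KO-only peaks were low, with 9 to 22 fragments and fold enrichments between 3.14 and 6.64. Across the genome, 4791 KO-only peaks (27.8%) had more than 22 fragments. Near class I genes, *H2-Q10* had KO-only peaks of 22 and 13 fragments (chr17:35486404-35486653 and chr17:35485129-35485399). *H2-T22* had 19 and 13 fragments (chr17:36036176-36036520 and chr17:36036807-36037085), *H2-T10* had 19 fragments in an exon (chr17:36117700-36118047), and *H2-Bl* had 18 fragments (chr17:36090897-36091115). *H2-K1* had 19 fragments (chr17:33993617-33993958) and *H2-K2* had 10 fragments (chr17:33981103-33981375). Next to these, *H2-D1* had KO-only peaks of 13, 12 and 9 fragments, the most of any H2 gene, and *H2-M6-ps* had 15 fragments (chr17:36961268-36961460). A WT-only peak of 15 fragments lay 10.1 kb from *H2-Bl* (chr17:36094146-36094357), the only one near class I genes.

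At such heights a KO-only call was common across the genome. Among *Setdb1* KO peaks of at most 22 fragments, 15 of 20 near H2 genes (75%, 53.1 to 88.8%) and 12418 of 15917 in the genome (78.0%) were KO-only. The limit of 22 is the highest pileup of the H2 KO-only peaks, so all 15 fall under it by construction. The H2 share is thus no free estimate to set against that of the genome. Of all WT peaks, 25.2% had at most 22 fragments. The -log10 q of the 15 peaks ranged from 1.94 to 12.0 and was at least 5 in 8 of them. When the *Setdb1* KO list was cut to the length of the WT list by -log10 q, 1 of 64 H2 peaks was KO-only (1.56%), against 11.7% in the genome.

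The CTCF motif was as frequent under shared H2 peaks as elsewhere. A motif within 50 bp of the summit was called in 45 of 68 shared H2 peaks (66.2%, 54.3 to 76.3%), against 66.4% of shared peaks of the genome and 1% of windows 1 kb away. Among H2 KO-only peaks it was called in 9 of 15 (60%, 35.8 to 80.2%), and among those of the genome in 37.2%. Sequence marked as repetitive in the reference made up more than 50% of the window in 10 of the 15 H2 KO-only peaks (66.7%), against 41.4% of KO-only peaks of the genome. The share was 27.7% over all 83 H2 peaks, close to the 29.5% of all *Setdb1* KO peaks.

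The copies of class I genes also limit what the lists can hold. The authors kept reads that aligned to a single place, with up to 3 mismatches. Taking 32-base words as a stand-in for reads, the median share of unique words within the gene was 71.0% for class I genes (24.9 to 99.4%) and 93.8% for class II genes (66.2 to 99.6%). At the 6 upstream sites of the shared core it was 25.9 to 58.7%. With 20 kb added on each side of the genes, the medians were 67.0% for class I and 93.4% for class II. The paper reports reads longer than these words, so the shares are not those of the reads themselves. The effect of uniqueness and of the CBA haplotype on peak calls was not tested.

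At the edge of the 20 kb rule, the sites just inside were those near *H2-M3* (19.5 kb, 58 fragments in *Setdb1* KO and 29 in WT), *H2-Ob* (19.7 kb, the site with 74 and 18) and *H2-Q1* (19.7 kb, the site with 92 and 24). *H2-M3* presents formylated peptides. Just outside were a KO-only peak of 11 fragments 21.5 kb from *H2-M1*, a site 22.2 kb from *H2-Q10* (22 fragments in *Setdb1* KO, 16 in WT), and a KO-only peak of 16 fragments 23.1 kb from *H2-Q10*. The sites with the highest class I and class II ratios thus lay close to the edge.

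Other genes of antigen presentation were counted by the same 20 kb rule. Of 27 listed genes 26 matched the annotation, and all 26 had a *Setdb1* KO peak, against 83.1% of all 21938 protein-coding genes. A KO-only peak was near 18 of 26, against 52.4% of all, and a WT-only peak near 6 of 26, against 7.41% of all. *Tap1*, *Tap2*, *Psmb8* and *Psmb9* lie side by side with overlapping windows, and all count the same KO-only peak, at the start of *Tap2*. *Tap1* and *Psmb9* also count the same WT-only peak. These gene counts are thus not counts of separate peaks. The median over the 24 genes with a ratio was 1.32, with a range of 1.082 to 1.77, beside the 1.36 of the genome. The 4 that lie among the class II genes had medians of 1.64 (*Tap1*), 1.70 (*Tap2*), 1.62 (*Psmb8*) and 1.52 (*Psmb9*), from sites described above for the gap between *H2-DMb1* and *H2-Ob*. Of the regulators, *Ciita*, the class II transactivator, had 4 *Setdb1* KO and 2 WT peaks, of which 2 were KO-only, and *Nlrc5*, the class I transactivator, had 6 and 5, of which 1 was KO-only.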

How the data were processed

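CTCF ChIP-seq peak lists of *Setdb1* KO and WT ESCs were used, 1 library each. The authors aligned reads to mm10 with Bowtie 1.2, kept unique alignments, discarded duplicates (Picard) and ran MACS2 2.1.0 against an input. The deposited lists hold the authors' fold enrichment as a ratio with a pseudocount of 1, their p and q values as -log10, a score of 10 times -log10 q, and the offset of the summit. The fold enrichment and the Poisson -log10 p were solved for the pileup (tolerance 0.001), with 99.99% of *Setdb1* KO peaks solved. In a test on 2253 simulated peaks 100% were recovered.

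Gene spans came from GENCODE vM21. A CTCF matrix was built from 963 sites under the 1000 highest shared peaks, with a threshold of 12.5 bits, the 99th percentile of windows 1 kb away. Alike sites were found with BLASTN 2.17.0. Other tools were pysam 0.24.0, scipy 1.17.1, pandas 2.3.3, numpy 2.4.6 and Python 3.11.15. Shares have Wilson and ratios Clopper-Pearson 95% intervals, and no p-value was computed. Named with values were every class II gene, class I genes with a KO-only or WT-only peak or an interval on one side of the median, the 5 highest sites, and sites between class II genes. The members and lists were chosen with earlier results of these data known. Other overlap rules, thresholds and windows were tried. Other assays and second libraries were not analysed here.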

Additional observations from a re-analysis of the deposited data

How the results depend on the processing

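No paired analysis was possible because each condition has 1 CTCF peak list. Of 81 recomputed values over 12 results, 69 counted as unmoved, 12 moved and 0 reversed. A count was unmoved within 1.5 times the main count, and a share within the interval of the main share. A ratio was unmoved when it changed by at most 50% of the width of the interval of the main ratio of summed pileups. With summits inside genes only, the *Setdb1* KO peaks numbered 16 in place of 83, the median ratio was 1.25 over all H2 genes and 1.15 over class II genes, and WT-only peaks numbered 1. WT-only peaks also numbered 1 within 10 kb, 8 with a reciprocal overlap of 50%, 8 with summits within 100 bp and 7 with lists of equal length, against 3. With lists of equal length the KO-only share was 1.56% near H2 genes, 2.27% near class I genes and 0% near class II genes (0 of 19, up to 16.8%). When only peaks with -log10 q of 5 or more were kept, it was 12.0% near class I genes, with an interval below the 26.6% of the genome. The leave-outs of a single class II site were added after seeing the data and moved no ratio beyond its interval. A value counted as unmoved may still change its side of the genome share: the interval of the H2 KO-only share lay below that of the genome under 3 of 9 settings and contained it under 6, and that of class II lay below it under 5 of 10. A further limit is that 25.2% of WT peaks had at most 22 fragments, the height of the highest KO-only H2 peak.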
